A study of Mus musculus with 8 samples.

Results

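This report describes the genes that encode the proteins of the mitochondrial ribosome, in RNA from mouse acute myeloid leukemia (AML) cells. The members were the protein-coding genes whose symbol is Mrps (small subunit) or Mrpl (large subunit) followed by a number and, for the Mrps18 genes, a letter. This gave 78 of the 54838 genes in the table, 29 with a small subunit name and 49 with a large subunit name. The leukemia carries the RUNX1-RUNX1T1 fusion on a C57BL/6 background and was transplanted into Ptprca recipient mice. Per the labels these mice had received sublethal irradiation, which the methods of the study state only for its other leukemia models. The recipients were then given Vehicle (4 samples) or AG636 (4 samples), an inhibitor of the pyrimidine synthesis enzyme DHODH, by oral gavage at 100 mg/kg b.i.d., and a legend of the study gives a day of treatment. Immature cells with high surface cKit and low or absent CD11b were sorted. The age of the mice is not given in the sources used here. The labels name bone marrow and spleen without assigning either to a sample, and they do not state that the samples of a group came from separate mice. Fewer mice than samples per group are stated in a legend of the study, so p-values measure the spread between these samples, which may be technical.

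Mitochondria keep a ribosome of their own, which translates the mRNAs of the mitochondrial chromosome, all of which encode hydrophobic subunits of the respiratory chain and ATP synthase. Its 2 subunits hold rRNAs transcribed inside the organelle and proteins that are encoded in the nucleus, made in the cytosol and imported. Some of these proteins descend from bacterial ribosomal proteins and the others were acquired in mitochondria. Acute myeloid leukemia cells are known for a strong reliance on mitochondrial translation, and DHODH itself sits in the inner mitochondrial membrane and passes electrons to the respiratory chain.

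The samples held 6120030 to 7162036 counts, and the members took 0.417 to 0.564% of them. Levels are given as CPM, the usual scale of counts relative to the library, here with the library size adjusted for composition. The 3′ libraries give about 1 read per transcript, so levels were not divided by transcript length. Kit stood at 155 to 177 CPM in Vehicle and 153 to 252 CPM in AG636, Itgam, which encodes CD11b, at 0 to 4 counts in any sample, and Ptprc, the pan-leukocyte marker CD45, at 2.01 to 9.25 CPM over all samples. Red cell genes were present in both groups, with Klf1 at 167 to 183 CPM in Vehicle and 112 to 239 CPM in AG636, and 0 of 6 listed red cell genes passed the test. Vehicle sample 4 and AG636 sample 3 stood apart from their groups. When the samples were placed by multidimensional scaling (top 500 variable genes), Vehicle samples 1 to 3 lay between −0.57 and −0.52 on dimension 1 and Vehicle sample 4 at 0.14. AG636 samples 1, 2 and 4 lay between 0.41 and 0.87 there and AG636 sample 3 at −0.48. Counts are therefore also given without these samples.

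To determine whether AG636 altered the transcripts of the mitochondrial ribosome, each gene was compared between AG636 and Vehicle. Of the 77 members that passed the filter on low counts, 20 fell (26.0%) and 0 rose, at an adjusted p-value under 0.05 by limma-voom. Over all 10911 genes tested, 8.49% were called lower and 5.47% higher. Among the 4872 genes tested with an average level in the range of the middle 90% of the members, 10.9% were called lower. At an unadjusted p-value under 0.05, 39 of the 77 members were lower and 0 higher. Over all 10911 genes tested, 1858 were lower and 1493 higher (13.7% higher) at this threshold. The edgeR quasi-likelihood test called 20 members lower and 0 higher (8.41% of all genes lower), and DESeq2 called 22 lower and 0 higher (9.25% of all genes lower). Each of the 20 members called by limma-voom was also called by both of these tests. The median log2 fold change of the 77 members was −0.25, against −0.0056 over all genes tested. The fitted change was below 0 in 73 members (94.8%), against 50.6% of all genes tested. Without Vehicle sample 4 and AG636 sample 3, a choice made after the data were seen, 6 members were called lower (7.79%), close to the 7.29% of all genes called lower in that fit, and the median was −0.17. With library size alone in place of composition factors, 8 members were called lower (10.4%), against 5.23% of all genes. Leaving out Vehicle sample 3 or Vehicle sample 4 alone left 7 members called (9.09%), against 4.2% and 5.34% of all genes respectively. Leaving out AG636 sample 1 or Vehicle sample 2 gave 10 (5.77% and 5.49% of all genes), and leaving out AG636 sample 2 or Vehicle sample 1 gave 13 (6.77% and 4.83% of all genes).

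**Figure D1:**
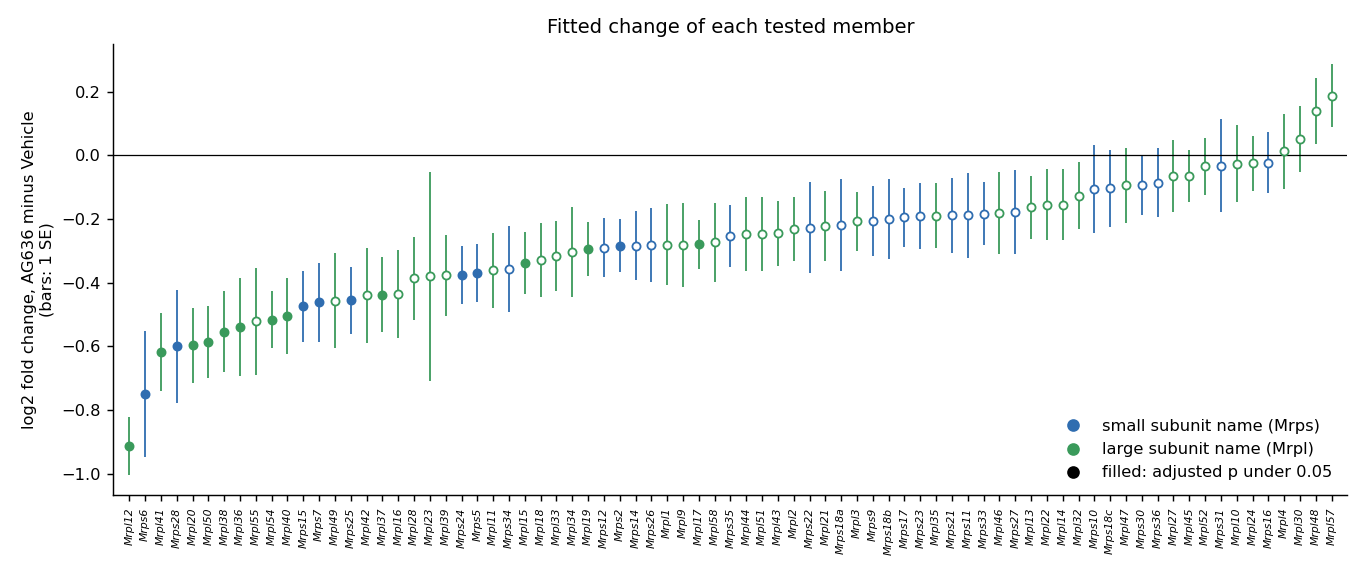
Fitted log2 fold change (AG636 minus Vehicle, vertical axis) of each of the 77 tested members, ordered from the lowest to the highest, with bars of 1 SE. Blue marks small subunit names, green large subunit names and filled points an adjusted p under 0.05. All 20 filled points lie below 0, and 4 members, with large subunit names, lie above it.

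The groups did not overlap, with every AG636 sample below every Vehicle sample, in 25 members (32.5%), against 12.9% of all genes tested, and this included the 20 called members. The other 5, named after their values were seen, were Mrpl11, Mrpl28, Mrpl42, Mrps12 and Mrps35, with adjusted p-values between 0.0587 (Mrps12) and 0.106 (Mrps35).

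The subunits were compared next. In the small subunit 8 of 29 members fell (27.6%) and in the large subunit 12 of 48 tested members fell (25%), against 8.49% of all genes tested. The median log2 fold change was −0.22 for the small and −0.28 for the large subunit. All 29 small subunit members and 44 of 48 large subunit members had a fitted change below 0. Without Vehicle sample 4 and AG636 sample 3, 1 of 29 small subunit members (3.45%) and 5 of 48 large subunit members (10.4%) were called, against 7.29% of all genes in that fit, so the small subunit share was below that of all genes. The medians were then −0.16 and −0.19. Summed over its members, the small subunit stood at 1751, 1717, 1815 and 1918 CPM in Vehicle samples 1 to 4 and at 1540.1, 1456, 1417 and 1635 CPM in AG636 samples 1 to 4. The large subunit stood at 3488, 3395, 3547 and 3782 CPM in Vehicle and at 3079.5, 2784, 2819.6 and 3222 CPM in AG636. Both sums were lower in every AG636 sample than in any Vehicle sample. The ratio of the small to the large sum was 0.507 ± 0.004 in Vehicle and 0.508 ± 0.010 in AG636 (SD, n = 4 each), so the difference between the group means was smaller than the spread within either group.

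**Figure D2:**
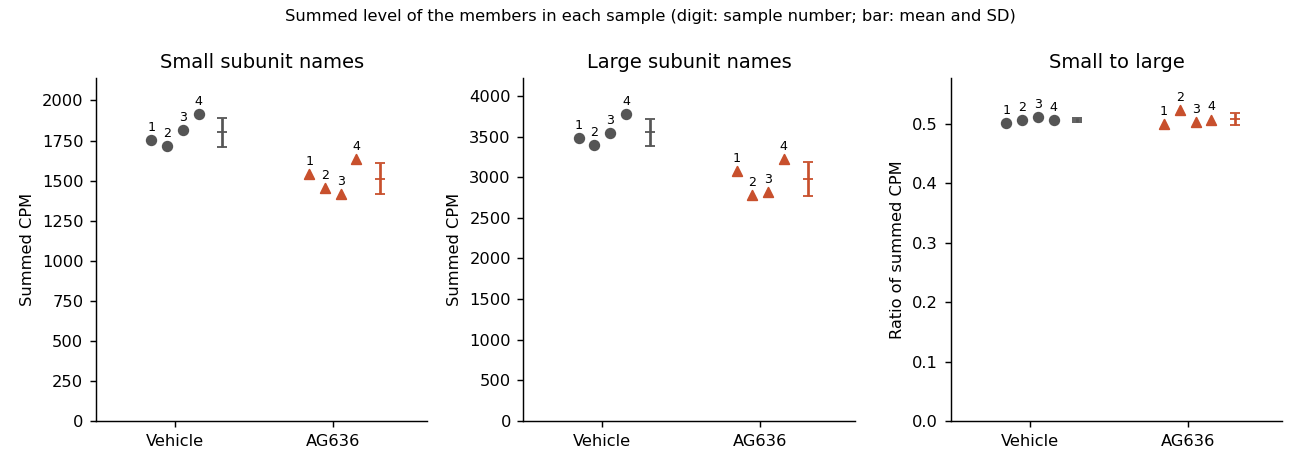
Summed CPM of the small subunit names (left) and large subunit names (middle), and the ratio of the sums (right), in each sample, with the sample number above each point and the mean and SD beside each group. All AG636 sums lie below all Vehicle sums, while the ratio lies near 0.51 in both groups.

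Symbols do not always give the place of a protein in the mammalian particle. Mrps30 and Mrps18a encode proteins of the large subunit (mL65 and mL66), and Mrps36 encodes a subunit of the 2-oxoglutarate dehydrogenase complex of the citric acid cycle. When members were placed accordingly, 8 of 26 in the small (30.8%) and 12 of 50 in the large subunit (24%) were called lower. This compares with 8.49% of all genes, and the medians were −0.24 and −0.28. Without Vehicle sample 4 and AG636 sample 3, 1 of 26 (3.85%) and 5 of 50 (10%) were called, against 7.29% of all genes. Mrps30 stood at 70.5 ± 2.46 CPM in Vehicle and 66.3 ± 6.99 CPM in AG636, with a fitted log2 fold change of −0.09 and an SE of 0.09 (adjusted p = 0.541). Mrps36 had a log2 fold change of −0.09 (adjusted p = 0.633), which turned positive without AG636 sample 3. Of members with a bacterial counterpart 13 of 48 were called lower, with a median of −0.28, and of those without one 7 of 28, with a median of −0.25 (27.1% and 25%, against 8.49% of all genes). Without Vehicle sample 4 and AG636 sample 3 the counts were 2 (4.17%) and 4 (14.3%), against 7.29% of all genes.

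Mrpl12 showed the largest fitted fall and the smallest p-value of the members. It encodes bL12m, the protein of the flexible stalk that recruits translation factors to the large subunit. The gene (ENSMUSG00000039640) lies on chromosome 11 at 120484613 to 120489065, + strand, in the GRCm38 coordinates of the table. Mrpl12 stood at 142, 135, 151 and 146 CPM in Vehicle samples 1 to 4 and at 82.3, 66.1, 77.4 and 79.8 CPM in AG636 samples 1 to 4. The highest AG636 sample was therefore well under the lowest Vehicle sample, and Vehicle sample 4 and AG636 sample 3 lay inside the range of their groups. The log2 fold change was −0.91 (SE 0.09, adjusted p = 0.00106), a decrease of 46.9%. Over all alternatives its adjusted p-value lay between 1.87e-15 and 0.00819.

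Promoters were examined for letters that are read by factors known to act on genes of mitochondrial proteins, among them NRF1, GABP (of the ETS family) and YY1. RefSeq windows (GRCm38.p6) from 250 bases before to 50 bases after the transcript start were at hand for 69 of the 78 members. Of the called members, Mrpl54, Mrpl38, Mrpl19, Mrpl15 and Mrps28 had none. Windows of 3 members are shown, namely the member with the largest fall (Mrpl12), a called member with a match (Mrpl50) and the member with the highest fitted change (Mrpl57). Capitals mark a match, on either strand, to CCGGAAG (ETS and GABP), GCATGCG (NRF1) or ATGGCGG (YY1), and each sequence is written on the strand of its gene.
Mrpl12, chr11:120484387-120484686, + strand: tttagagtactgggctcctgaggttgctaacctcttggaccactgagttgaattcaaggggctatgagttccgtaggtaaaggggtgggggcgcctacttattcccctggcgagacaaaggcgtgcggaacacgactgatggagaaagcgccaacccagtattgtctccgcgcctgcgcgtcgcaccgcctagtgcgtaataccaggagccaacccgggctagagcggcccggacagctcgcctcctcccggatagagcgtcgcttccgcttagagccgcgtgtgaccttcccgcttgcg
Mrpl50, chr4:49521034-49521333, − strand: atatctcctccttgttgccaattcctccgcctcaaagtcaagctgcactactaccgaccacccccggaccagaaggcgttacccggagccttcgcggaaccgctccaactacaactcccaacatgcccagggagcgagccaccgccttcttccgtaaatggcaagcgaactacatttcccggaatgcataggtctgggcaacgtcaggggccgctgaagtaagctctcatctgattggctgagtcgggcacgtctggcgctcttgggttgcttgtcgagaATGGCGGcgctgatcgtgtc
Mrpl57, chr14:57825989-57826288, + strand: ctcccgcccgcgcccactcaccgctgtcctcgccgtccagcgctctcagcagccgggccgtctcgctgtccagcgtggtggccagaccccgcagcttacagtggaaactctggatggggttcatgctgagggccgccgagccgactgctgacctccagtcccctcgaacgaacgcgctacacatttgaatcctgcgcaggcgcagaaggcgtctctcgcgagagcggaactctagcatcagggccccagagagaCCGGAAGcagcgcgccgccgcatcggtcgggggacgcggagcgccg

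The Mrpl12 window held no match, the Mrpl50 window a YY1 match that begins 31 bases after the start, and the Mrpl57 window an ETS match that begins 5 bases after it. Among the 69 members with a window, 37.7% held CCGGAAG, against 23.2% of the 8154 tested genes with a window and 9.93% of the 27025 genes of the whole promoter table. ATGGCGG stood in 18.8% of members, 10.7% of tested genes and 4.69% of the table, and GCATGCG in 11.6%, 7.89% and 4.01%. The letters GGGCGG (Sp1) stood in 49.3% of members and 70.3% of tested genes, and CACGTG (E-box, read by Myc) in 7.25% and 12.1%. Within the members, 1 of 25 tested genes with an ETS match was called lower (Mrpl17) and 14 of 43 without it, with medians of −0.21 and −0.28. Over all tested genes 10.8% with an ETS match and 8.47% without it were called lower. With a YY1 match 4 of 12 members were called lower and without it 11 of 56, against 11.7% and 8.69% of all tested genes with and without the match. With an E-box 3 of 5 members were called lower (Mrpl20, Mrpl36 and Mrpl37, named after their values were seen) and without it 12 of 63, against 13.9% and 8.33% of all tested genes. With an NRF1 match 1 of 8 members was called lower and without it 14 of 60, against 11.2% and 8.83% of all tested genes. With an Sp1 match 8 of 34 members were called lower and without it 7 of 34, against 9.34% and 8.25% of all tested genes. These counts of matching letters are descriptions and were not tested.

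Among the other large subunit members, Mrpl54 (chromosome 10, 81264713 to 81266934, − strand) encodes the mitochondria-specific protein mL54. It stood at 90.6, 92.4, 92.5 and 97.2 CPM in Vehicle and at 71.5, 59.4, 61.0 and 69.2 CPM in AG636. The Vehicle samples lay close together, and all AG636 samples lay below them. The log2 fold change was −0.52 (SE 0.09, adjusted p = 0.00544). Mrpl50 (chromosome 4, 49512596 to 49521093, − strand), also specific to mitochondria, stood at 46.6, 48.4, 50.4 and 55.2 CPM in Vehicle and at 30.6, 29.1, 36.2 and 37.9 CPM in AG636. Its log2 fold change was −0.59 (SE 0.11, adjusted p = 0.00858), and again no AG636 sample reached the Vehicle range.

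Mrpl20 (chromosome 4, 155802878 to 155809975, + strand) encodes bL20m, whose bacterial relative binds the rRNA early in assembly of the large subunit. Its level was 99.8, 84.8, 99.0 and 121 CPM in Vehicle and 71.5, 57.8, 67.3 and 69.4 CPM in AG636. Vehicle samples 2 and 4 marked the ends of a wide Vehicle range, which the AG636 samples did not enter. The log2 fold change was −0.60 (SE 0.12, adjusted p = 0.00978). Mrpl41 (chromosome 2, 24974117 to 24975098, − strand), a mitochondria-specific protein, stood at 38.8, 35.0, 49.7 and 40.5 CPM in Vehicle and at 26.0, 25.2, 27.9 and 26.7 CPM in AG636. Here the AG636 samples differed among themselves by less than the Vehicle samples did. Its log2 fold change was −0.62 (SE 0.12, adjusted p = 0.0102). Mrpl38 (chromosome 11, 116131817 to 116138868, − strand), a mitochondria-specific protein of the central protuberance of the large subunit, stood at 36.0, 40.9, 39.2 and 48.1 CPM in Vehicle and at 25.2, 26.2, 27.1 and 32.8 CPM in AG636. In both groups sample 4 was the highest. The log2 fold change was −0.55 (SE 0.13, adjusted p = 0.0175), and the adjusted p rose to 0.0575 without Vehicle sample 4 and AG636 sample 3.

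Mrpl12, Mrpl54, Mrpl50, Mrpl20 and Mrpl41 passed the threshold under every alternative tried. These 5 and Mrpl38 were the 6 members called in all 8 fits that left out 1 sample. The remaining large subunit members that fell were Mrpl40, Mrpl37, Mrpl17, Mrpl36, Mrpl19 and Mrpl15. Mrpl40, a gene of the region deleted in the human 22q11 deletion syndrome, fell from 49.9 ± 5.52 to 35.1 ± 4.0 CPM (log2 fold change −0.50, adjusted p = 0.0199). Mrpl36, which encodes bL36m, fell from 93.3 ± 12.3 to 64.8 ± 14.2 CPM (log2 fold change −0.54, adjusted p = 0.0413). Mrpl37 had a log2 fold change of −0.44 (adjusted p = 0.0318). The smallest called changes of this subunit were in Mrpl17 (−0.28), whose bacterial relative lies at the exit of the peptide tunnel, Mrpl19 (−0.30), whose bacterial relative forms a bridge to the small subunit, and Mrpl15 (−0.34), with adjusted p-values of 0.0376, 0.0414 and 0.0423. Mrpl19 shared 197 of its last 300 exonic bases with Gcfc2 on the opposite strand, and whether counting used strand is not given in the sources used here. All 6 lost the call without Vehicle sample 4 and AG636 sample 3, and Mrpl19 lost it in each of the 8 fits without 1 sample. Of these 8 fits, Mrpl40 was called in 6, Mrpl37 in 2, and Mrpl17, Mrpl36 and Mrpl15 in 1 each.

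**Figure D3:**
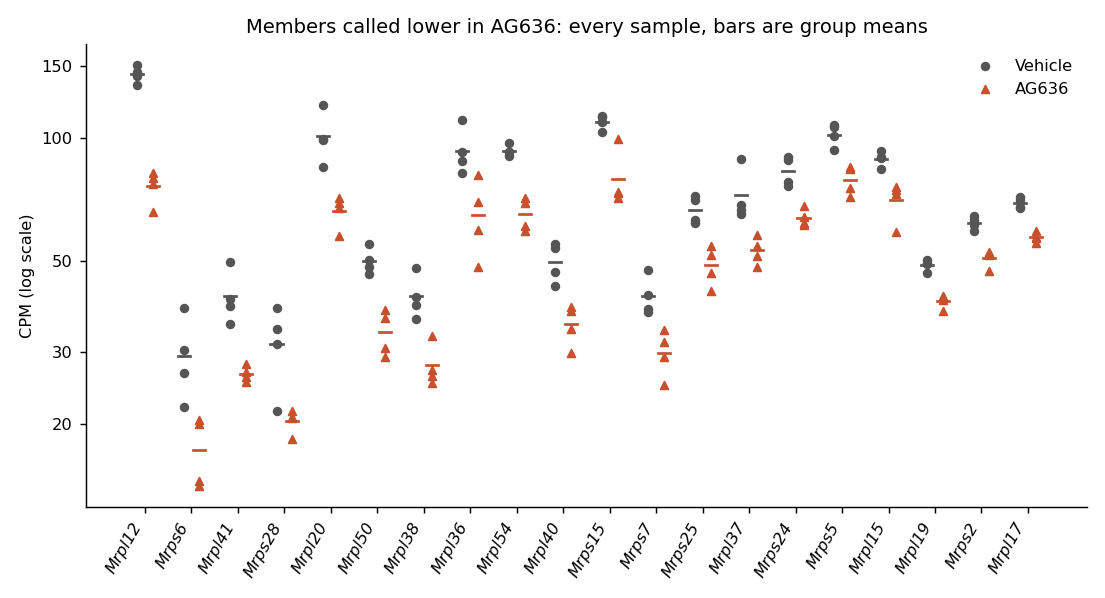
CPM (logarithmic axis) of the 20 members called lower, with 1 point per sample (grey circles Vehicle, red triangles AG636) and a bar at each group mean. In each member all 4 AG636 samples lie below all 4 Vehicle samples, and Mrpl12 has the widest gap.

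Of the 8 small subunit members that fell, Mrps25 and Mrps15 had the smallest p-values. Mrps25 (chromosome 6, 92169525 to 92184033, − strand), a mitochondria-specific protein, stood at 62.9, 72.1, 61.9 and 70.4 CPM in Vehicle and at 42.3, 46.8, 54.4 and 51.7 CPM in AG636. The groups were separated, and the log2 fold change was −0.46 (SE 0.10, adjusted p = 0.0177). Mrps25 was the only small subunit member called without Vehicle sample 4 and AG636 sample 3 (adjusted p = 0.0305). However, Mrps25 lost the call when Vehicle sample 2 alone or Vehicle sample 4 alone was left out. All of its last 300 exonic bases overlap Nr2c2 on the opposite strand, so its reads and those of Nr2c2 may not be told apart.

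Mrps15 (chromosome 4, 126046925 to 126055532, + strand) encodes uS15m, whose bacterial relative binds the rRNA early in assembly of the small subunit. It stood at 104, 113, 113 and 109.5 CPM in Vehicle and at 71.2, 73.4, 74.0 and 99.7 CPM in AG636. AG636 sample 4 lay just under the Vehicle range and the other AG636 samples far below it. The log2 fold change was −0.47 (SE 0.11, adjusted p = 0.0190).

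Mrps24 (uS3m) and Mrps5 (uS5m) belong to bacterial families near the entry path of the mRNA. Mrps24 fell from 83.2 ± 7.04 to 64.0 ± 3.06 CPM (log2 fold change −0.38, adjusted p = 0.0205) and Mrps5 from 102 ± 6.34 to 79.1 ± 6.53 CPM (−0.37, adjusted p = 0.0220). Mrps2 (uS2m) fell from 62.1 ± 2.14 to 51.0 ± 2.43 CPM (−0.28, adjusted p = 0.0435), but lost the call in each of the 8 fits that left out 1 sample. Mrps7, whose bacterial relative organizes the head of the small subunit, fell from 41.1 ± 4.54 to 29.9 ± 3.84 CPM (−0.46, adjusted p = 0.0335). It shared 119 of its last 300 exonic bases with Mif4gd on the opposite strand. Of the 8 fits without 1 sample, Mrps24 was called in 6, Mrps15 in 5, Mrps5 in 4 and Mrps7 in 2.

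Mrps6 (bS6m) and Mrps28 (bS1m) had the largest fitted falls of the small subunit and also large standard errors. Mrps6 fell from 29.3 ± 6.93 to 17.2 ± 3.43 CPM (log2 fold change −0.75, SE 0.20, adjusted p = 0.0312) on 88 to 248 counts per sample. Mrps28 fell from 31.3 ± 7.13 to 20.3 ± 1.34 CPM (−0.60, SE 0.18, adjusted p = 0.0465). Of the 8 fits without 1 sample, Mrps6 was called in 3 and Mrps28 in 1. The lowest Vehicle sample and the highest AG636 sample of Mrps28 both round to 21.5 CPM, so the separation of its groups rests on less than 0.1 CPM.

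The Mrps18 paralogs, 3 genes that descend from bacterial S18, did not pass the test. Mrps18a stood at 23.6 ± 1.43 CPM in Vehicle and 20.5 ± 3.70 CPM in AG636 (log2 fold change −0.22, adjusted p = 0.338). Mrps18b stood at 82.0 ± 8.40 and 71.8 ± 12.3 CPM (−0.20, adjusted p = 0.310) and Mrps18c at 56.9 ± 3.72 and 53.3 ± 8.75 CPM (−0.10, adjusted p = 0.609). In Vehicle the order of levels was thus Mrps18b, Mrps18c, Mrps18a, with no overlap between the ranges of the 3 genes over the 4 samples.

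The largest positive fitted changes were in Mrpl57, Mrpl48 and Mrpl30, none of which passed the test. Mrpl57, specific to mitochondria, stood at 96.4 ± 7.16 CPM in Vehicle and 109.9 ± 11.9 CPM in AG636 (log2 fold change 0.19, SE 0.10, adjusted p = 0.228). Mrpl48 stood at 52.2 ± 4.6 and 57.7 ± 5.75 CPM (0.14, adjusted p = 0.397). Mrpl30, which encodes uL30m, had a log2 fold change of 0.05 (adjusted p = 0.773), and this turned negative without AG636 sample 2.

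Mean levels of the members in Vehicle ranged from 0 to 267 CPM. In Vehicle the median of the 78 members was 61.2 CPM, with quartiles of 41.0 and 86.5 CPM, and 69 members lay between 20 and 120 CPM. The medians of the small (60.9 CPM) and large (61.5 CPM) subunits were alike. Over all samples the highest members were Mrpl52, Mrpl18 and Mrpl34. Mrpl52, a mitochondria-specific protein, stood at 267 ± 9.24 CPM in Vehicle and 262 ± 27.6 CPM in AG636, a log2 fold change of −0.03 (adjusted p = 0.83) whose sign changed with library size alone and without some samples. Mrpl18 (uL18m, of the family that contacts 5S rRNA in bacteria) stood at 219 ± 20.4 and 175 ± 25.6 CPM (−0.33, adjusted p = 0.0843) and Mrpl34 (bL34m) at 189 ± 16.4 and 155 ± 33.8 CPM (−0.30, adjusted p = 0.174). The lowest of the tested members were Mrpl23 (uL23m, of the tunnel exit), at 4.61 ± 1.08 CPM in Vehicle and 3.75 ± 1.63 CPM in AG636, and Mrpl9 (bL9m), at 21.4 ± 2.18 and 17.6 ± 2.01 CPM. With 14 to 37 counts per sample, the change of Mrpl23 was poorly determined (log2 fold change −0.38, SE 0.33).

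Mrpl53 was the member that failed the filter, with 0 counts in every sample, which allows up to 0.419 to 0.490 CPM per library at 3 counts. The annotation places 695 of its exonic bases, including all of its last 300, in Gm42688 on the same strand, to which 9 counts were assigned over the 8 samples. A level of Mrpl53 could therefore not be read from these counts.

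Across members, the fitted change was weakly related to the level (Spearman's rho 0.12) and to the exonic length (0.19), over 77 genes that share the same libraries. The spread between samples was larger in AG636. The median coefficient of variation of the members' CPM was 8.46% in Vehicle and 11.4% in AG636, and 57 of the 77 varied more in AG636. The same count over all genes tested was not made, so this is not shown to be particular to the members. Beyond the members, pairs of AG636 samples also differed more (chi-square per degree of freedom 12.9 to 22.6) than pairs of Vehicle samples (3.69 to 12.0).

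To examine how the members moved in each sample, log2 CPM was compared with the Vehicle mean of the same gene. The median difference over the 77 members was −0.23, −0.32, −0.37 and −0.14 in AG636 samples 1 to 4, and −0.04, −0.06, −0.01 and 0.09 in Vehicle samples 1 to 4. AG636 sample 3 was thus the lowest of all samples and Vehicle sample 4 the highest, and these are the samples that stood apart. In AG636 samples 1 to 4, 64, 68, 72 and 63 members lay below their Vehicle mean. In Vehicle sample 4 only 14 did, against 41 to 59 in the other Vehicle samples. The median over all genes tested stayed between −0.0123 and 0.0052 in every sample, where the composition factors hold it near 0. With library size alone, the median fitted log2 fold change was 0.064 over all genes tested and −0.18 over the members.

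**Figure D4:**
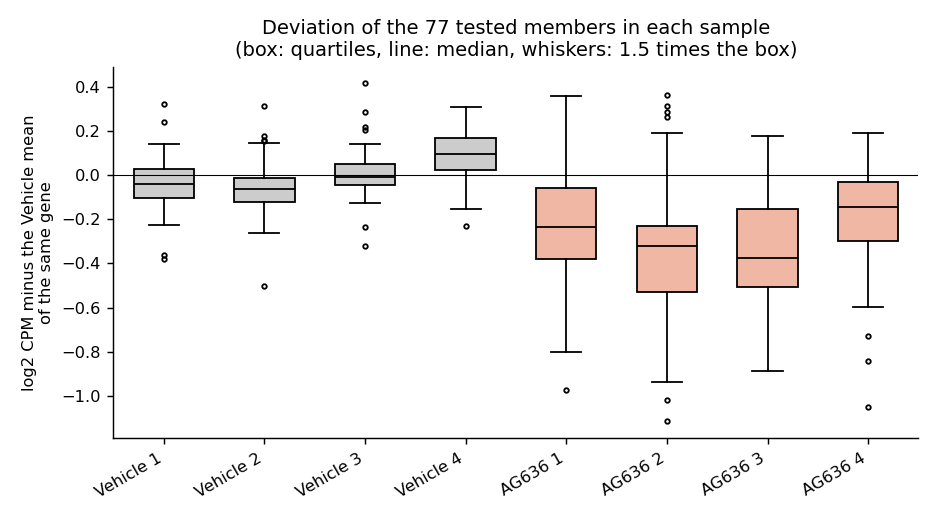
Difference of log2 CPM from the Vehicle mean of the same gene (vertical axis) for the 77 tested members in each of the 8 samples (boxes show quartiles and median, whiskers reach 1.5 times the box, circles lie beyond). The 4 AG636 medians, from −0.37 to −0.14, lie below the 4 Vehicle medians, from −0.06 to 0.09.

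Other proteins of the particle carry symbols of a different form. Of 5 such genes, all tested, 2 fell (40%, against 8.49% of all genes). Aurkaip1 (mS38) fell from 112 ± 5.22 to 72.2 ± 2.32 CPM (log2 fold change −0.63, SE 0.08, adjusted p = 0.00178). Ptcd3, a pentatricopeptide repeat protein of the small subunit (mS39), fell from 82.1 ± 5.94 to 53.6 ± 6.42 CPM (−0.62, SE 0.10, adjusted p = 0.00502). Both also passed the threshold without Vehicle sample 4 and AG636 sample 3. The remaining 3, named after their values were seen, were Dap3 (0.12), Chchd1 (−0.05) and Gadd45gip1 (−0.31), with adjusted p-values of 0.509, 0.757 and 0.110.

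Factors that build the mitochondrial ribosome and modify its rRNA included 29 tested genes, of which 5 fell (17.2%, against 8.49% of all genes) and 0 rose, with a median log2 fold change of −0.15. C1qbp, an abundant matrix protein needed for mitochondrial translation, fell from 434 ± 47.3 to 258 ± 11.7 CPM (−0.74, SE 0.09, adjusted p = 0.00178). Mrm3, a methyltransferase of the large rRNA, fell from 16.7 ± 1.77 to 9.81 ± 1.53 CPM (−0.76, SE 0.16, adjusted p = 0.0121). Fastkd2 (−0.55), Rcc1l (−0.54) and Noa1 (−0.56), the first a binding protein of the large rRNA and the last a GTPase of small subunit assembly, fell with adjusted p-values of 0.0172, 0.0238 and 0.0325. Without Vehicle sample 4 and AG636 sample 3, 2 of the 29 were called (6.9%), close to the 7.29% of all genes. Among 16 tested translation factors and activators 1 fell (6.25%, under the 8.49% of all genes), namely Slirp, which with Lrpprc binds mitochondrial mRNAs (124 ± 10.1 to 95.8 ± 11.5 CPM, −0.38, adjusted p = 0.0366). It lost the call without those samples.

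The members were set beside the proteins of the cytosolic ribosome, the family most like them. Of 82 tested cytosolic ribosomal protein genes 4 were called lower (4.88%, against 8.49% of all genes) and 0 higher, with a median log2 fold change of −0.10. The fitted change was below 0 in 60 of these 82 genes (73.2%), against 94.8% of the mitochondrial members and 50.6% of all genes tested. Without Vehicle sample 4 and AG636 sample 3, 2 cytosolic ribosomal protein genes were called lower (2.44%, against 7.29% of all genes) and their median was again −0.10. Their summed level was 81433 ± 2898 CPM in Vehicle and 78522 ± 12845 CPM in AG636 (SD, n = 4 each). AG636 sample 2 held the highest sum of all samples, at 96911 CPM, while its mitochondrial members summed to 4239.5 CPM, the second lowest value. No test was made of the difference between the families.

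**Figure D5:**
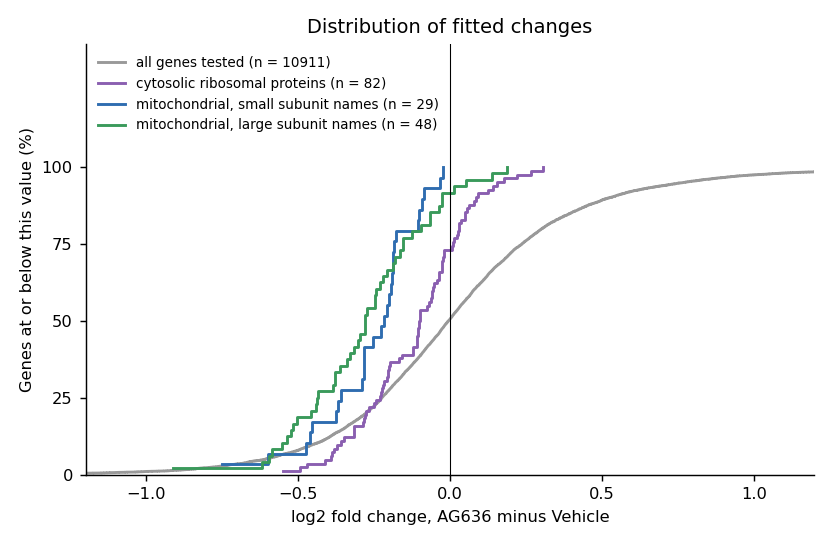
Share of genes (percent, vertical axis) at or below a given log2 fold change of AG636 minus Vehicle (horizontal axis) for small subunit (blue) and large subunit (green) members, cytosolic ribosomal proteins (purple) and all genes tested (grey). Each mitochondrial curve crosses 50% near its median, −0.22 or −0.28, left of the cytosolic curve at −0.10 and of all genes near 0.

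The rRNAs of the same particle and the mRNAs that it translates come from the mitochondrial chromosome. The small subunit rRNA mt-Rnr1 rose from 11212 ± 771 to 15854 ± 1096 CPM (log2 fold change 0.50, SE 0.09, adjusted p = 0.00705), while the large subunit rRNA mt-Rnr2 stood at 29496 ± 1187 and 34648 ± 3333 CPM (0.23, adjusted p = 0.134). Without Vehicle sample 4 and AG636 sample 3, mt-Rnr1 was again called higher (0.57, adjusted p = 0.0145). The mRNAs of this chromosome fell in 9 of 11 tested genes (81.8%, against 8.49% of all genes). Without those samples they fell in 6 of 11 (54.5%, against 7.29% of all genes). In the opposite direction, the fitted log2 change of mt-Nd6 was 0.94 (adjusted p = 0.061). This gene was called higher by edgeR (adjusted p = 0.0282) and DESeq2 (adjusted p = 0.00199), and was called higher by limma-voom without those samples (1.30, adjusted p = 0.00507). The sum of these mRNAs was 38964 ± 1825 CPM in Vehicle and 23781, 18235, 9363 and 14656 CPM in AG636 samples 1 to 4. The sample with the lowest sum, AG636 sample 3, was also the sample with the lowest median of the members. The other AG636 samples did not keep this order. Sample 4 had a lower sum than samples 1 and 2 but the highest AG636 median of the members (−0.14). The libraries were primed on poly-A, and nuclear copies of mitochondrial sequence may share reads with these genes, so their levels are those of the reads so assigned.

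The members lie on 17 chromosomes, with 11 on chromosome 11 and 8 on chromosome 17. Of the 77 tested members, 33 (42.9%) start within 1000 bases of another protein-coding gene on the opposite strand, head to head, against 18.9% of the 9783 tested protein-coding genes. Of the 29 partners that were tested, 4 fell and 1 rose, all named after their values were seen, where 8.49% of all genes were called lower and 5.47% higher. Those that fell were Tcp1 beside Mrpl18 (−0.60), Ndufs6 beside Mrpl36 (−0.49), Hira beside Mrpl40 (−0.49) and Twnk beside Mrpl43 (−0.59). Tcp1 is a subunit of the cytosolic chaperonin, Ndufs6 of respiratory complex I, Hira is a histone chaperone and Twnk the helicase of mitochondrial DNA. Ppp1r10, 45 bases from the start of Mrps18b, rose (0.64, adjusted p = 0.0121). The starts of Mrpl46 and Mrps11 lie 412 bases apart, and these members had log2 fold changes of −0.18 and −0.19, neither of which passed the test.

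Markers of other cells that a sort could leave in were examined beside these results. Summed levels of 5 B cell genes were 13.4 to 32.9 CPM in Vehicle and 21.2 to 103 CPM in AG636, with Cd79a called higher at 0.29 to 1.06 and 1.6 to 3.18 CPM. Those of 7 mature myeloid genes were 37.0 to 84.7 and 14.2 to 155 CPM, those of 5 T and NK cell genes 2.13 to 9.18 and 4.31 to 19.3 CPM, and those of 6 red cell genes 2086 to 5507 and 4236 to 5444 CPM. For 3 stromal genes the sum was at most 1.98 CPM. The ranges of each list overlap between the groups, and their part in the result was not tested. In bulk samples, fewer cells of a type and less RNA per cell cannot be told apart.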

How the data were processed

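RNA of 8 samples was profiled with QuantSeq 3′ libraries. The deposited table holds raw counts of reads for each gene. To make it, the authors removed reads of low quality, trimmed reads with cutadapt, mapped them to mm10 with HISAT2 and counted them with Subread (featureCounts). The submitters' processing notes give cutadapt 1.9.1, HISAT2 2.0.4 and Subread 1.5.0-p3, which are not the versions in the methods for every tool. Strand handling is not given in the sources used here. Table IDs were matched to GENCODE M21, and 73 of the 78 members had the same start and end there. Samples were grouped by their titles, and no 2 samples of a group held identical values.

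Genes were filtered with filterByExpr (minimum count 10), scaled by TMM and fitted with limma-voom with group as the only term (R 4.3.3, limma 3.58.1, edgeR 4.0.16). Tests were two-sided, with Benjamini-Hochberg adjustment over all genes tested and a threshold of 0.05. CPM used the TMM-adjusted library size, and log2 CPM per sample a prior count of 2. Alternatives were edgeR, DESeq2 1.42.0, limma-trend, sample quality weights, RLE factors, library size alone, other filters, mitochondrial genes left out, a replicate block and each sample left out.

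Members and lists were chosen with earlier results of these data known. Named members are the called ones, Mrpl12, Mrpl54, the 3 highest changes, the Mrps18 genes, Mrps30, Mrps36, the 3 highest and 3 lowest levels, the one that failed the filter, and called genes of the lists. The value of every sample is given for the 8 smallest p-values. Of the listed translation factors, 1 had no row in the table used. Protein sequences were not analysed here. The floor given for Mrpl53 covers counting error only, while the SDs and SEs are based on the spread between samples.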

Additional observations from a re-analysis of the deposited data

Results flagged for a closer look

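For the named genes (log2 CPM) and the summed levels, the highest or lowest sample of each group was compared with the others by Dixon's ratio. In 6 of 90 combinations of measure and group it lay past the 95% critical value, where chance gives about 1 in 20 (4.5). Mrps15 in AG636 sample 4 stood at 6.64 log2 CPM, against 6.16 to 6.22 in the other AG636 samples. Mrpl37 in Vehicle sample 4 stood at 6.48 (others 6.04 to 6.11), and Mrps18b in the same sample at 6.57 (others 6.28 to 6.30). Mrpl15 in AG636 sample 3 stood at 5.89 (others 6.19 to 6.25), and Mrps2 in that sample at 5.58 (others 5.71 to 5.73). Mrps30 in Vehicle sample 1 stood at 6.07 (others 6.16 to 6.18).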

How the results depend on the processing

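The medians of all members and of each subunit kept their sign and no member was called higher under any alternative run, with the median of all members between −0.28 and −0.17. The number of members called lower (20; 8 small, 12 large) was 8 with library size alone (2 small, 6 large), 13 with no filter (5 small; 3.14% of all genes), 6 without Vehicle sample 4 and AG636 sample 3 (1 small, 5 large; chosen after seeing the data), and 15 to 22 with the other tests, scalings and filters. Leaving out single samples gave 7 (without Vehicle sample 3, or without Vehicle sample 4) to 22 (without AG636 sample 4) members, 1 to 7 small and 6 to 15 large, with up to 8.49% of all genes lower. Without AG636 sample 1 or Vehicle sample 2 it was 10, and without AG636 sample 2 or Vehicle sample 1 it was 13. Over all genes, 926 were lower and 597 higher, against 571 and 918 with library size alone, 955 higher with DESeq2, and 467 to 937 lower and 221 to 769 higher without single samples. Among the named genes, the fitted change of Mrpl30, Mrps36 and Mrpl52 changed sign. Mrpl30 was −0.035 without AG636 sample 2 (single samples left out −0.035 to 0.11). Mrps36 was 0.0093 without AG636 sample 3 (range −0.15 to 0.0093), and 0.035 without that sample and Vehicle sample 4. Mrpl52 was 0.035 with library size alone and 0.022 without Vehicle sample 4 and AG636 sample 3. Without single samples it was −0.069 to 0.030, positive without AG636 sample 2 or Vehicle sample 4. Members not named also changed sign. With library size alone 11 of the 77 tested members had a positive change, against 4 in the main fit. The cause of these moves was not tested. Replicate numbers did not pair the samples (correlations of deviations −0.14 to 0.20). With the replicate block, 18 members were called lower, 7 small and 11 large (7.61% of all genes lower). Depth limits Mrpl23.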
